A study of Homo sapiens with 4 samples.

Results

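Hypermethylation of promoter CpG islands is a common route by which tumours silence growth-restraining genes, and 8 genes known for it in human cancer were followed here in HEK293 cells, a human embryonic kidney line. The genes are CDKN2A and RB1, which hold cells before S phase, RASSF1, a scaffold of the Hippo pathway, APC, a brake on WNT signalling, CDH1, which encodes E-cadherin, VHL, the substrate receptor that marks hypoxia-inducible factor for decay, BRCA1, which acts in homologous recombination, and MGMT, which removes alkyl groups from guanine. They were chosen by name. All start sites of their transcripts in GENCODE release 44, placed on hg19, were used, and a new peak within 1000 bp of any of them was assigned to the gene. The 8 genes are part of 20163 protein-coding genes tested in the same way, and 7 of the 12864 new peaks were assigned to them.

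The series comprises 4 conditions with 1 MBD-seq library each, namely untreated cells, and cells sorted 3 days after transfection with dCas9-SunTag, an sgRNA against the ISG15 CpG island and Ab-3A3L carrying wild type, K844E or R887E DNMT3A. Ab-3A3L is an antibody fragment that docks on the SunTag, fused to the catalytic part of DNMT3A and the C-terminal part of DNMT3L, so all 3 transfected groups share dCas9-SunTag, the ISG15 sgRNA and a form of the effector, and no transfected group lacks it. Transfection was transient and the labels give no independent cultures. MBD-seq captures sonicated DNA on the part of MBD2 that binds methylated CpGs, and more fragments are recovered from a region the more methylated CpGs it holds. The values come from the list of peaks that the authors called as new in the wild type library compared to untreated cells. The other libraries were not analysed here. A region enters the list when its enrichment passes the caller's threshold, so a promoter without a new peak may have been unmethylated, methylated before the treatment, or below detection, and these cannot be told apart. Each condition has 1 library, so replicate error is unknown and no test was made.

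DNMT3A and its cofactor DNMT3L lay down methylation on unmodified DNA, and CpG islands at promoters are usually kept free of it. Several members have more than 1 promoter, and tumours often methylate one of them and leave the other open. CDKN2A makes the kinase inhibitor INK4a from its downstream promoter and ARF, which restrains MDM2, from an upstream one. RASSF1 has an isoform A promoter, which is the one commonly methylated in tumours, and a downstream promoter for isoform C. APC transcripts begin at promoter 1A or at the upstream promoter 1B.

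Stretches of 100 bases of the plus strand of hg19 are shown for promoters with and without a new peak, with each CpG in capitals. They are the stretches closest to the summit, or to the start site where there was no peak, that hold no annotated untranslated sequence. The pairs from RASSF1 and APC show the alternative promoters of the same gene, and VHL and MGMT show dense CpGs with and without a new peak. In the order printed, they lie at chr3:50374636-50374735, chr3:50378368-50378467, chr5:112043415-112043514, chr5:112073399-112073498, chr3:10183538-10183637 and chr10:131265354-131265453.
RASSF1, isoform C promoter, new peak: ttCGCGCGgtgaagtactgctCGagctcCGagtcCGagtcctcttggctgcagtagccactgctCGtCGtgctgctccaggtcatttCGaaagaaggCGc
RASSF1, isoform A promoter, no new peak: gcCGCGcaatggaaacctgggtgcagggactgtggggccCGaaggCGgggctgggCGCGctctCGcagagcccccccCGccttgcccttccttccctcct
APC, promoter 1B, new peak: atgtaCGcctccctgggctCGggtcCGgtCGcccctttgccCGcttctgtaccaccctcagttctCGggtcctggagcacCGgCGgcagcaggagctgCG
APC, promoter 1A, new peak: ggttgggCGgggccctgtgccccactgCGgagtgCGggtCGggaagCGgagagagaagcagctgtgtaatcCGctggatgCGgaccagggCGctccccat
VHL, new peak: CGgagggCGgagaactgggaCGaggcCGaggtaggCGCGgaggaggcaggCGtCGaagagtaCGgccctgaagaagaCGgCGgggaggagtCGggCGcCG
MGMT, no new peak: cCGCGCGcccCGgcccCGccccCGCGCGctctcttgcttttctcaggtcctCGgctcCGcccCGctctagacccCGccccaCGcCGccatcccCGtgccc
The RASSF1 stretches hold 10 CpGs with and 8 without a new peak, the APC stretches 9 and 8, the VHL stretch 14 and the MGMT stretch 15. The MGMT promoter, with the most CpGs of the 6 stretches, had no new peak, and promoter 1A of APC, with 8, had one.

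Of the 8 genes, 5 had a new peak within 1000 bp of a start site, or 62.5%, against 45.0% of the 20163 protein-coding genes. CDKN2A and APC had 2 new peaks each, RASSF1, RB1 and VHL had 1 each, and BRCA1, CDH1 and MGMT had none. All 8 genes have a CpG island at 1 or more of their promoters, where an island promoter is one with an island within 1000 bp of its main start site, the site with most transcripts. Among the 15314 protein-coding genes with that feature 58.7% had a new peak, against 1.55% of the 4849 without it. When all genes were placed in 10 classes by the CpG number around their most CpG-rich promoter, the shares of the members' own classes averaged 64.8%, which corresponds to 5.18 of 8 genes. The members' count therefore lies near that of genes with like CpG content. Genes are not replicates, and this comparison is a description.

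The start sites of the 8 genes, 80 in all, were grouped into 34 promoters, with neighbouring sites up to 500 bp apart in 1 group. New peaks reached 9 of the 34 promoters, or 26.5%, against 17.5% of the 69676 promoters of protein-coding genes. Counted as single start sites, 26 of the 80 had a new peak within 1000 bp, against 29.8% of the 146567 start sites of coding genes. Of the 15 member promoters with an island within 1000 bp, 8 had a new peak, or 53.3%, against 50.6% of such promoters in all coding genes. The main start site itself lies inside the island at 10 of the 15, of which 7 had a new peak, against 57.7% of such promoters in coding genes. Of the 19 promoters with no island within 1000 bp, the 1A promoter of APC had one. The share over all such promoters was 0.603%. The sequence of the 1A peak passes the island limits used here, and in its class of 47 to 68 CpGs the share was 7.72%. All 5 member promoters with 133 or more CpGs within 1000 bp of their main start site carried a new peak. They belong to the upstream CDKN2A promoter, RB1, RASSF1 and, with 2 promoters under the same peak, VHL, and 75.9% of coding promoters in that class had one. Among member promoters without a new peak, the most CpGs in that window were the 127 of CDH1.

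**Figure D1:**
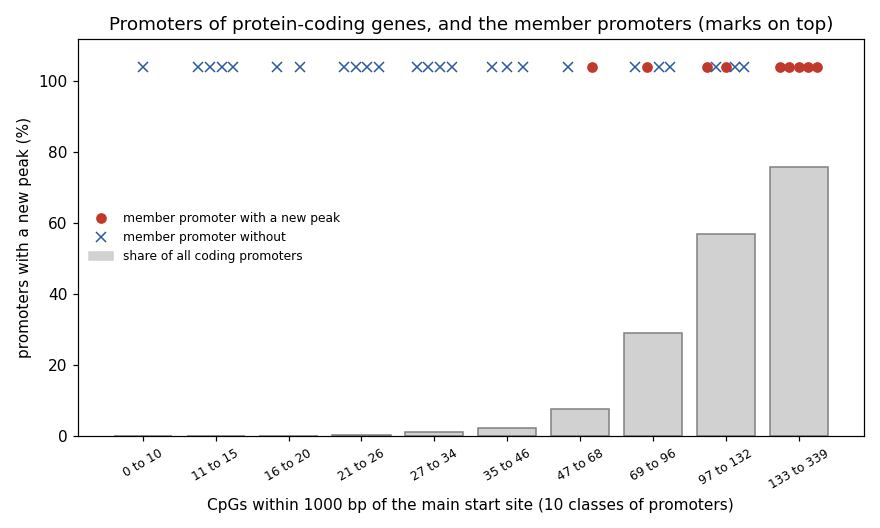
Bars give the share (%) of promoters of protein-coding genes with a new peak, in 10 classes by the number of CpGs within 1000 bp of the main start site, and marks on top stand for the 34 member promoters (circles with, crosses without a new peak; their height has no meaning). The share rises from 0% in the class with the fewest CpGs to 75.9% in the class with the most, and circles occur from the class of 47 to 68 CpGs upwards.

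CDKN2A, on the minus strand of chromosome 9, had a new peak at the INK4a promoter and another beside the most upstream start sites of its upstream promoter. At the INK4a promoter the peak ran from 21974608 to 21974918 and covered 4 start sites, with its summit at 21974774 in coding exon sequence, 52 bp inside the gene from the nearest start site. Its fold enrichment was 7.26 with a −log10 q of 10.9. From the listed fold and p-value, 19 fragments at the summit over a background of 1.76 were recovered, and the 95% exact Poisson interval of the fold was 4.51 to 11.1. These intervals cover counting error in the wild type library alone. The peak was 311 bp wide, with 32 CpGs of the 63 in the island.

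The second CDKN2A peak, from 21995489 to 21995983, had a fold of 6.21, with 9 fragments over the genome-wide background of 0.611 (interval 3.18 to 11.2). It is 495 bp wide, holds 44 CpGs and lies upstream of the gene, 189 bp from the nearest CDKN2A start site, with its summit at 21995880. The promoter also has start sites further downstream (the last at 21994391), some of which are over 1000 bp from the peak. The peak was therefore assigned through the more upstream sites of this promoter. Which of the sites gives rise to ARF was not resolved, so a new peak at the start of ARF itself is not shown. It covers the far edge of a 1809 bp island with 177 CpGs and takes in 23.2% of them. The antisense lncRNA CDKN2B-AS1 has a start site at 21994901, 29 bp from one of CDKN2A, and another at 21995132, 357 bp from this peak. The lncRNA ENSG00000266446 begins 8 bp from the peak. The remaining 2 CDKN2A promoters lie on either side of an island of 277 bp with 35 CpGs and had no new peak, the nearest one lying 3209 bp away.

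RB1, which binds E2F factors and holds back S phase genes, had 1 new peak on chromosome 13 from 48877995 to 48878294. The fold was 7.45, from 11 fragments over the background of 0.611 (interval 4.03 to 12.8), and the −log10 q was 8.38. The peak begins 84 bp downstream of the nearest start site and its summit, 264 bp downstream, lies in coding exon sequence. It is 300 bp wide, and its 43 CpGs, at 14.3 per 100 bp, are 36.4% of those in the island. The lncRNA RB1-DT, which starts 24 bp from RB1 in the other direction, has its start 139 bp from the peak. The other 3 RB1 promoters lie within the gene, have 11 to 16 CpGs in their windows and had no new peak. One of them faces LPAR6, a lysophosphatidic acid receptor gene whose start site is 124 bp away.

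RASSF1, on the minus strand of chromosome 3, differed between its promoters. The isoform C promoter had a new peak from 50374472 to 50374869, 26 bp downstream of the start site. The fold enrichment there was 5.73 and the −log10 q 8.38. The recovered 19 fragments stood over a background of 2.49, which is 4.08 times the genome-wide rate and the highest of the 7 peaks. The interval of the fold was 3.56 to 8.78. The peak is 398 bp wide and holds 53 CpGs, 38.1% of those in an island of 1365 bp, and the summit is in coding exon sequence. A start site group just beyond the upstream end of that island, at 50375664 to 50375719, lies 795 bp from the peak, and RASSF1-AS1, an antisense lncRNA, begins 73 bp from it.

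The isoform A promoter of RASSF1 had no new peak. Its 7 transcripts start between 50378261 and 50378411 in a CpG island of 737 bp with 84 CpGs, and the window of 1000 bp on either side holds 107 CpGs. The lncRNA ZMYND10-AS1 begins 126 bp from the most upstream of these sites. The nearest new peak was that of isoform C, 3392 bp downstream. In its class of 97 to 132 CpGs, 56.9% of coding promoters had a new peak. Among 5406 coding genes with 2 or more island promoters, 30.9% had a new peak at some but not all of these, as RASSF1 and CDKN2A did, and 44.9% had one at 2 or more, as RASSF1, CDKN2A and VHL did. BRCA1, the remaining member with 2 or more island promoters, had none at either. Counting promoters outside islands too, CDKN2A, RASSF1, APC and VHL had 2 or more promoters with a new peak, against 17.7% of the 14192 coding genes with 2 or more promoters. That share includes genes without an island, which every member has. In both counts, RASSF1 and VHL enter through 1 peak each that reaches 2 start site groups. With start sites up to 1000 bp apart in 1 group, 7 of 30 member promoters had a new peak.

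APC, on the plus strand of chromosome 5, had a new peak at both of its main promoters. The 1B peak, from 112043318 to 112043585, was the narrowest of the 7 at 268 bp and had the fewest CpGs, 22. Its fold was 6.39 from 11 fragments over a background of 0.878 (interval 3.46 to 11.01), with its summit 194 bp downstream of the start site in untranslated exon sequence. The 1A peak, from 112073297 to 112073678, had the highest fold of the members, 9.93, from 15 fragments over the genome-wide background (interval 5.83 to 16.0) and a −log10 q of 13.5. It covers 3 start sites, has its summit at 112073449, upstream of the main start site of 1A, in an intron of the transcripts from 1B, and holds 25 CpGs.

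The 1A promoter of APC has no rebuilt island within 1000 bp, and its window holds 48 CpGs, a class in which 7.72% of coding promoters had a new peak. The CpG density of the 1A peak, 6.54 per 100 bp, was the lowest of the 7. Its fold was above that of 68.3% of the 9792 peaks at coding start sites. Its 15 fragments were above those of 33.9% of the same peaks, and its background was at the genome-wide rate. The third APC promoter, an internal start with 4 CpGs in its window, had no new peak.

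VHL, on chromosome 3, had 1 new peak from 10183437 to 10183834, which covers 4 of its 5 start sites. Its fold of 5.29 was the lowest of the members and its −log10 q of 5.40 the smallest, with 12 fragments over a background of 1.46 (interval 2.93 to 8.94). The peak had the most CpGs of the 7, with 60 in 398 bp, or 15.1 per 100 bp, and its summit lies in coding exon sequence. The last start site, at 10184230, in the same island, is 396 bp beyond the peak. The small nucleolar RNA snoU13 begins 603 bp from it.

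The remaining 3 members had no new peak at any promoter. The main promoter of CDH1, on chromosome 16, lies in an island of 1310 bp with 114 CpGs, and the other 7 CDH1 start sites, all inside the gene, have 18 to 44 CpGs in their windows. The nearest new peak was 288704 bp upstream of the main promoter, farther than for 89.5% of the 11644 island promoters of coding genes that had no new peak. For these promoters the median distance was 39609 bp. The lncRNA ENSG00000260798 and the pseudogene FTLP14 begin 281 and 658 bp from the last of these sites. The main MGMT promoter on chromosome 10, with 98 CpGs in an island of 762 bp, was 495763 bp from the nearest new peak, which is farther than for 93.5%. The other MGMT start site, which has 36 CpGs in its window and lies 81 bp from the start of the lncRNA ENSG00000237224, had none either. No new peak lay inside CDH1 or MGMT, or within 50000 bp of either gene.

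BRCA1, on the minus strand of chromosome 17, has 8 promoters, of which 2 have an island within 1000 bp. The main one, with 15 start sites and 87 CpGs in its window, lies beside the lncRNA NBR2, whose start site is 68 bp from a BRCA1 start and points away. The island there lies on the NBR2 side of the start sites and spans 1110 bp with 81 CpGs. Of coding promoters in this class, 29.0% had a new peak. The nearest new peak was 99681 bp away. The most upstream BRCA1 start site, 236 bp from a start site of NBR1, a receptor in selective autophagy, also had no new peak within 1000 bp. The lncRNA ENSG00000267002 and the pseudogene ENSG00000267340 begin 71 and 168 bp from it. With the limit of 1000 bp, the farthest assigned peak lay 189 bp from the nearest start site of its gene, and the closest peak left out, seen from the genes without one, lay 22866 bp from a BRCA1 start site.

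**Figure D2:**
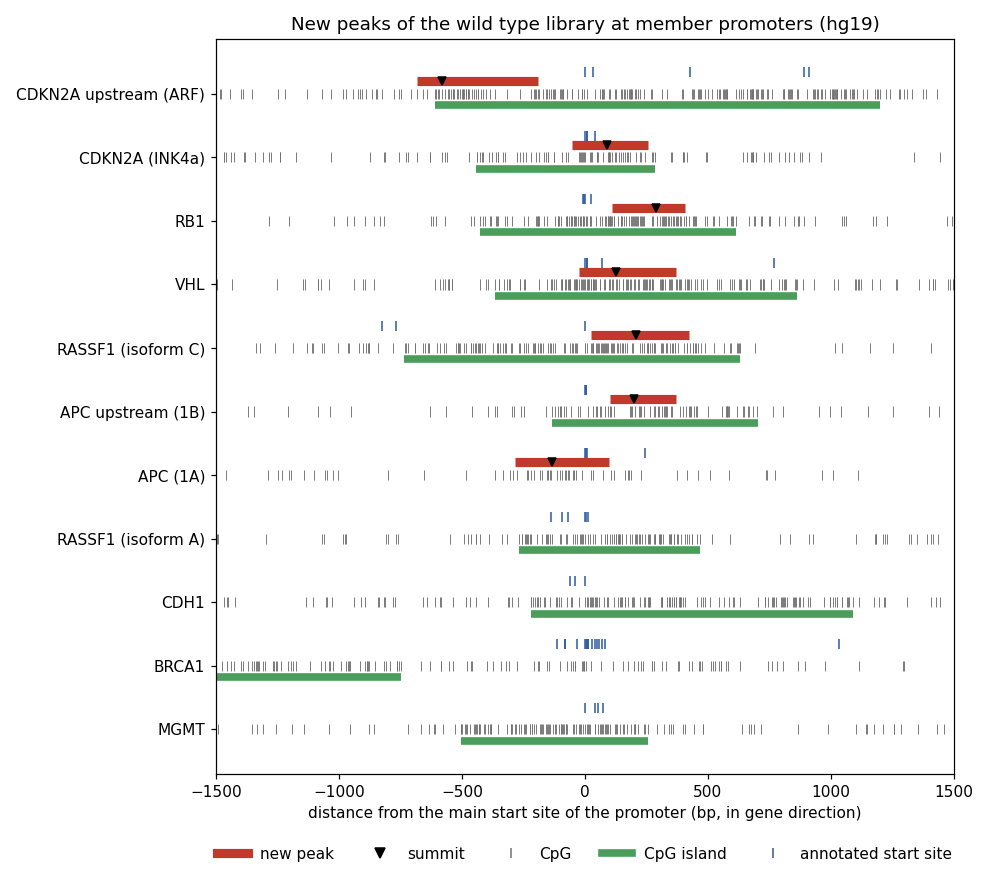
Each row shows 1500 bp on either side of the main start site of a member promoter (x axis, bp), in the direction of the gene, with CpGs (grey ticks), rebuilt CpG islands (green), annotated start sites of the gene (blue ticks), new peaks (red) and summits (triangles). The upper 7 rows have a new peak, of which 3 cover a start site. The lower 4 have none, with 87 to 127 CpGs within 1000 bp of their main start site. In their classes by CpG number, 29% (BRCA1) and 56.9% (RASSF1, CDH1 and MGMT) of coding promoters had a new peak. The label ARF stands for the whole upstream CDKN2A promoter, and which of its start sites gives rise to ARF was not resolved.

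As a group, the 7 member peaks were narrow and moderate in height. Widths ranged from 268 to 495 bp, with a median of 382 bp against 557 bp over the 9792 peaks at coding start sites, and all 7 were below the median of all new peaks, 498 bp. The median fold was 6.39 against 7.99, and the 1A peak of APC alone had a fold above the latter. Fragments at the summit ranged from 9 to 19 with a median of 12, against 17. The 7 intervals of the fold share the range from 5.83 to 8.78. They cover the fragment count alone, with the background held fixed, and overlap of intervals is no test of order. An order among the member peaks was not tested, and none is claimed at this depth. The CpG number had a median of 43 against 58, while the density, with a median of 10.3 per 100 bp, was close to the 10.4 of the peaks at coding start sites.

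The 6 member peaks that overlap islands took in 23.2% to 50.8% of the island's CpGs, with a median of 37.3%, against 58.9% over 9504 peaks at coding start sites that overlap one. A start site lay inside 3 of the 7 peaks, and 72.3% of the peaks at coding start sites cover one. The peaks at RB1, RASSF1 and promoter 1B of APC began 26 to 99 bp downstream of a start site. At the upstream CDKN2A promoter, RB1 and promoter 1A of APC the background equalled the genome-wide rate, and at the other 4 peaks it was 1.44 to 4.08 times as high. No stretch in the 7 peaks had up to 5 mismatches to the ISG15 sgRNA next to an NGG PAM, and the closest had 7, in both CDKN2A peaks.

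**Figure D3:**
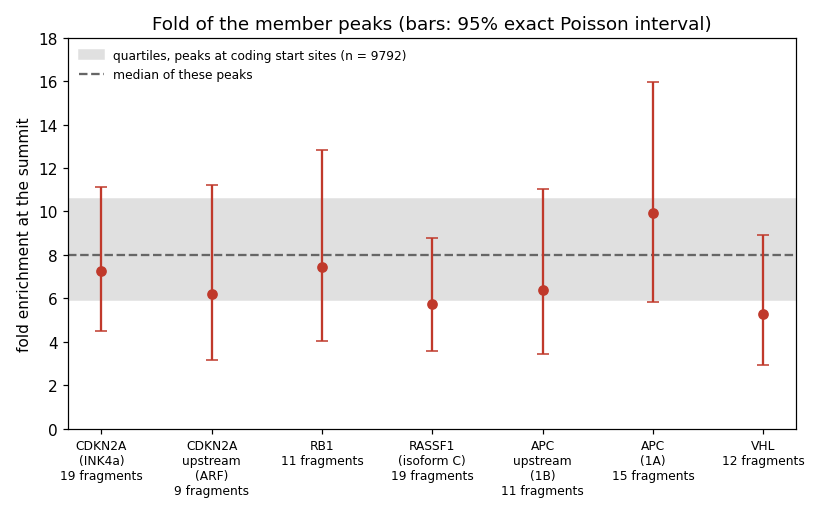
Points give the fold enrichment at the summit of the 7 member peaks with 95% exact Poisson intervals, the grey band the quartiles and the dashed line the median of 9792 new peaks at coding start sites. All 7 intervals include folds from 5.83 to 8.78, and the point of promoter 1A of APC alone lies above the dashed line. The label ARF stands for the whole upstream CDKN2A promoter, and a peak at the start of ARF itself is not shown.

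Other tumour suppressors and the partners of the members were set beside them. A wider list of 46 genes often described as methylated in tumours, or as classical tumour suppressors, had a new peak at 32, or 69.6%. All 46 have an island at a promoter, and 58.7% of coding genes with one had a new peak. That background takes no account of CpG number, and in the class of coding genes with the most CpGs the share was 80.3%. The share to be read from the CpG classes of the 46 genes was not computed. Over the 32 genes the median of the highest fold was 7.26. On the same measure, 1 peak per gene with the highest fold, the median of the members was also 7.26. All 6 cell cycle inhibitors and checkpoint genes had a new peak, which were CDKN2B, CDKN1A, CDKN1B, CDKN1C, CHFR and TP73. Their folds ranged from 3.11 at TP73 to 13.0 at CDKN2B, the neighbour of CDKN2A, which encodes the INK4b inhibitor. Of 8 DNA repair genes, 5 had one, among them the mismatch repair gene MSH6, and BRCA2 and FANCF of the Fanconi and recombination pathway, while ATM, RAD51C and PALB2 had none.

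Of 5 WNT inhibitors, SFRP1 and AXIN2 had a new peak and SFRP2, WIF1 and DKK3 did not. TIMP3, THBS1 and CADM1, which act in the matrix and in cell adhesion, had one and CDH13 did not. In the signalling and cell death group, 8 of 11 genes had one, with DAPK1, RASSF2, RASSF5, SOCS1, SOCS3, GSTP1, RARB and HIC1 against RUNX3, PYCARD and FHIT. RUNX3 had none although a window at one of its promoters holds 233 CpGs. Of 12 classical tumour suppressors, 8 had a new peak, among them SMAD4, STK11, NF2, TSC2, WT1, PTCH1 and MEN1, and those without one included NF1, TSC1 and SMARCB1. The highest folds of the wider list were 14.8 at PTCH1, the Hedgehog receptor, 13.0 at CDKN2B and 12.4 at both CADM1 and RASSF5, and the lowest were 2.70 at WT1 and 3.11 at TP73.

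Of 27 partners of the members, 17 had a new peak, or 63.0%, with a median highest fold of 8.70. All 27 have an island promoter, so the share lies near the 58.7% of coding genes with one. The partners of RB1 all had one, with folds of 7.45 at RBL1, 8.26 at RBL2 and 8.06 at E2F1. RBL1, RB1 and BARD1 have the same listed fold because each had 11 fragments over the genome-wide background. In the VHL ubiquitin ligase, the scaffold gene CUL2 had the highest fold of the list, 22.5 from 40 fragments, ELOB had 8.70 and RBX1, the RING subunit, 3.76, the lowest of the list, while ELOC had no new peak. Of the destruction complex of APC, AXIN1, AXIN2 and GSK3B had one, with 6.27, 9.01 and 8.07, and CSNK1A1 had none. CTNNA1 and CTNNB1, the catenins of E-cadherin, had folds of 9.93 and 9.59, CTNND1 had none, and CDH1 itself had none.

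For BRCA1, the partners BARD1 and BRCA2 had a new peak, with folds of 7.45 and 6.06, and BRIP1 and PALB2 had none. The Hippo kinase gene STK3 and the scaffold gene SAV1, which act with RASSF1, had 9.31 and 11.2, and STK4 had none. Around CDKN2A, the kinase genes CDK4 and CDK6 had 9.43 and 11.8, and MDM2 had none. ALKBH2 and ALKBH3, which repair alkylated bases by another chemistry than MGMT, had none, in windows of up to 60 and 58 CpGs. The highest folds after CUL2 were thus those of CDK6 and SAV1, and the lowest after RBX1 was that of BRCA2. BRCA2, PALB2 and AXIN2 are among the genes on both lists.

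**Figure D4:**
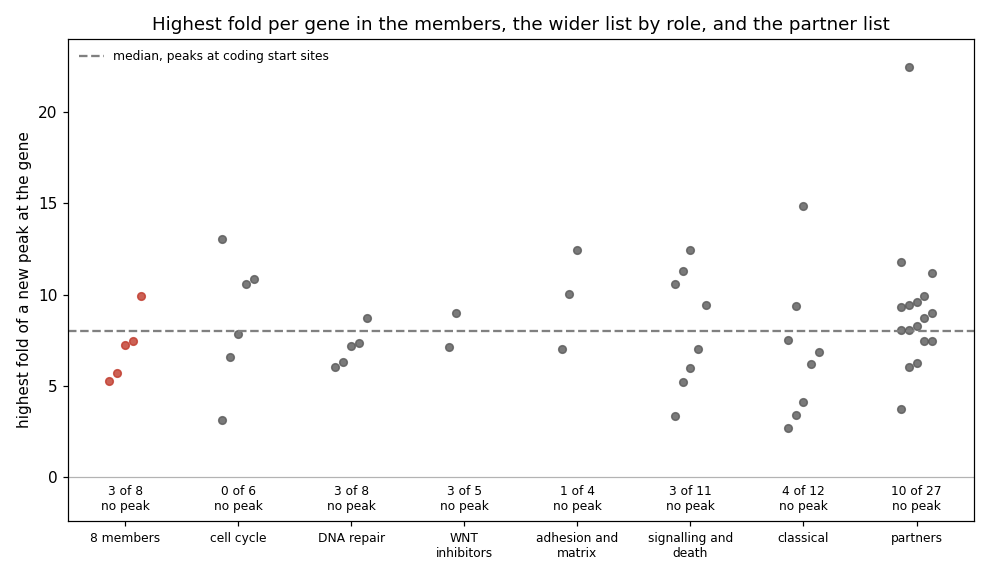
Each point is a gene with a new peak and gives the highest fold among its new peaks, for the 8 members, the 6 groups of the wider list and the partner list, and the count below each column gives the genes without a new peak. The dashed line is the median fold of the peaks at coding start sites, taken over every peak and not over the highest per gene. The point farthest above it is CUL2 at 22.5.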

How the data were processed

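MBD-seq was done on HEK293 cells of 4 conditions (1 library each), of which the wild type new peaks were used. Reads had been aligned by the authors to hg19 (Bowtie2, default settings), and FastQC, deepTools and MACS2 are also named in the submitters' processing notes. The settings and the control of the peak calling are not given in the sources used here. The deposited score is a whole number, 10 times the −log10 q rounded down, and was not used. The deposited fold is a ratio of summit signal to local background. The deposited −log10 values belong to a p-value and a q-value of the caller, with a smallest −log10 q of 2.00. Summits were placed from their deposited offset within each peak.

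The reference was GRCh37, the build of hg19, with GENCODE release 44 lifted to it. Fragments and background were recovered by taking the fold as (fragments + 1)/(background + 1) and the p-value as the chance of more fragments under a Poisson law, which met every listed −log10 p within 0.000403. The genome-wide background of 0.611 corresponds to 6515796 reads if the fragment length was 253 bp, the shortest peak, and the genome size 2700000000 bp. At that background 6 fragments sufficed for a listed peak. That the caller was MACS2 with its usual formulas is an inference from these values.

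CpG islands were built on unmasked sequence (length over 200 bp, GC content of at least 50%, observed/expected ratio over 0.6). They were not taken from the UCSC list that the study used, where promoters near these limits may be classed otherwise. The CpG number of a promoter was counted within 1000 bp of its main start site, that with most transcripts. A CpG was counted inside a region when both bases were. Gene lists were fixed by symbol, and the members and lists were chosen with earlier results of these data known. The naming rule took all 8 members, every gene that starts within 1000 bp of their start sites or peaks, all list genes in counts, and the folds of the 3 highest and 2 lowest genes of each list. Folds of other list genes, and the CpG numbers of RUNX3, ALKBH2 and ALKBH3, were chosen after their values were seen, as were the genes at other peaks within 50000 bp. Some list genes are not reported here by name. The steps were tested on simulated data, where the fragments of 2000 of 2000 peaks, 60 of 60 islands and 200 of 200 start site calls were recovered. Alternatives covered the distance, the peak threshold, the start sites, the grouping of promoters, the islands and the PAM. Scripts ran under matplotlib 3.10.9, pysam 0.24.0, numba 0.67.0, scipy 1.17.1, pandas 2.3.3, numpy 2.4.6 and Python 3.11.15.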

Additional observations from a re-analysis of the deposited data

How the results depend on the processing

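Of 54 alternatives of the counts and medians, 37 stayed within 1.5 times the reported value. With a start site distance of 500 or 2000 bp, the summit in place of the whole peak, or protein-coding transcripts alone, the 5 genes with a new peak were the same. When the peak had to cover a start site, 3 genes, 3 peaks and 3 promoters were left, without RB1 and RASSF1, beside 34.9% of coding genes. Peaks of at least the median fold left 2 genes (RB1 and APC), 2 peaks, 2 promoters and 15 genes of the wider list, beside 5584 coding genes (27.7%). RB1 stayed by a tie, as its fold of 7.45 equals the median of all new peaks. A −log10 q of at least 10 left 2 genes (CDKN2A and APC), 2 peaks, 2 promoters, 21 genes of the wider list and 11 partners, beside 5427 coding genes (26.9%). These settings keep fewer peaks by construction. With the canonical transcript alone, 4 peaks and 4 promoters remained, and RASSF1 lost its peak, which lies at another promoter than the canonical one. Counted as single start sites, 26 of 80 had a new peak, against 29.8% of those of coding genes. BRCA1, CDH1 and MGMT had none with the distance of 2000 bp either. Of the 8 alternatives of distance, peaks and transcripts, that one alone could have added a peak to them, since the others can only remove peaks. No paired analysis was possible because every condition was measured in 1 library. With 9 to 19 fragments at a summit, the intervals of the members' folds overlap.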

Other observations

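Other new peaks lay near some members and belong to other genes. Within 50000 bp of CDKN2A, 2 further new peaks lay at CDKN2B, from 22006001 to 22006291 with a fold of 8.07 and from 22008669 to 22009392 with a fold of 13.0 and 20 fragments, so the INK4 locus held 4 new peaks in all. Inside RB1, far from its own start sites, a peak from 49107064 to 49107468 with a fold of 11.2 covers a start site of RCBTB2, which falls within the annotated span of RB1. Beyond VHL, a peak with a fold of 10.6 covers a start site of IRAK2, a kinase gene of interleukin signalling, and another with a fold of 3.97 lies 832 bp from one. Near BRCA1, peaks with folds of 9.92 and 7.36 lay at VAT1 and RND2. RASSF1 and APC had no further new peak within 50000 bp.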
